A study of Drosophila melanogaster with 2 samples.

Results

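The heat shock and chaperone genes described here are Hsp22, Hsp23, Hsp26, Hsp27, Hsp67Bc, Hsp68, Hsp83, Hsc70-4, DnaJ-1 and stv, 10 listed genes among the 18277 that Ensembl release 115 places on the chromosome arms of Drosophila melanogaster, 13968 of them protein-coding. They are a list of names, drawn up with earlier results of these data known. The data are chromatin immunoprecipitation followed by sequencing (ChIP-seq) with an antibody against GFP, from whole adult males of unstated age of a stable transgenic line that carries tHMG1 (the product of CG7045, a DNA-binding protein of the HMG-box family) with GFP fused to its C-terminus. The 2 biological replicates, numbered 1 and 3, share this genotype, sex and stage and form 1 group, so each value below describes where the tagged protein was enriched and none compares conditions. Whether the line is a single insertion, what drives the tagged gene, and whether the flies also kept an untagged copy is not stated in the labels, and neither is any heat treatment. With whole animals as the source, strong enrichment in few cells and weak enrichment in many cells cannot be told apart, and the tissue could not be checked by markers because no expression was measured.

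When proteins misfold, as they do in heat, the heat shock factor Hsf binds short inverted repeats called heat shock elements upstream of its target genes and drives their transcription. The products are chaperones with a division of labour. Small heat shock proteins hold unfolding proteins in a soluble state, Hsp70 proteins refold them in cycles of ATP use that J-domain proteins start and nucleotide exchange factors complete, and Hsp90 proteins mature kinases, receptors and other clients. In Drosophila several of these promoters also carry repeats of GAGAG, bound by the GAGA factor, and hold a paused RNA polymerase before any stress, which made them models of open promoter chromatin.

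A gene was counted as having a peak where the summit of a peak, its highest point, lay within 500 bp of any of its transcription start sites (TSSs). Of the 10 genes, 6 had such a peak in the authors' list of peaks reproducible by IDR (irreproducible discovery rate, a measure of how well replicates rank the same peaks), against 21.4% of all protein-coding genes. With windows of 250 and 1000 bp the counts were 6, against 17.4%, and 9, against 24.6%. These were the Hsp90 gene Hsp83, the small heat shock protein genes Hsp27 and Hsp26, the constitutive Hsp70 gene Hsc70-4, the J-domain gene DnaJ-1 and the BAG-domain co-chaperone gene stv. The other 4 genes, Hsp22, Hsp23, Hsp67Bc and Hsp68, did not have one. All 10 had a summit in the longer list of the pooled replicates, against 55.8% of protein-coding genes, and 9 had one in both replicate lists, against 46.9%, Hsp23 being the exception. These longer lists hold 30000 entries each and include background by their makers' description. The 10 genes are not independent of each other, since 5 of them stand within 14.184 kb in the 67B cluster.

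Each peak carries a signal, the authors' own enrichment value from their peak caller, which has its own scale in each list. The 4574 IDR peaks ran from 90.3 to 2864 with a median of 145.9, and they are the strongest entries of the pooled list, so a pooled signal and an IDR signal of the same peak are the same number. The median was 34.9 in the pooled list, 20.4 in the list of replicate 1 and 18.5 in that of replicate 3. Read depth is unknown, so no counting error can be attached to a peak, and ranks within a list are used to set the replicates side by side. All coordinates are of build dm6.

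**Figure D1:**
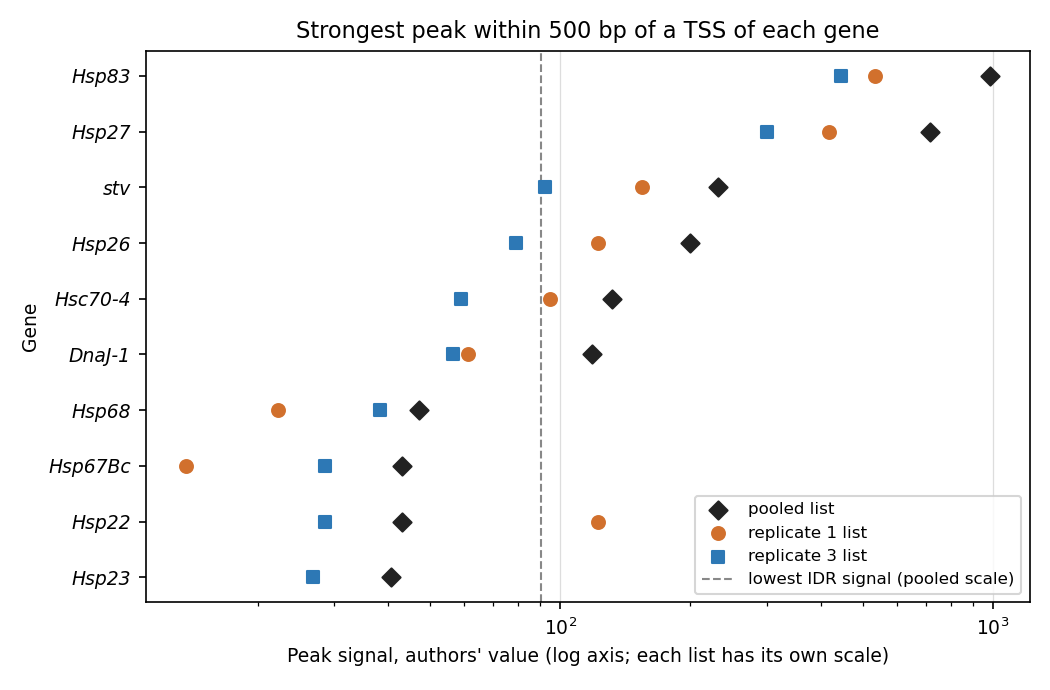
Signal of the strongest peak with a summit within 500 bp of a TSS, for each of the 10 genes, in the pooled list and the list of each replicate (horizontal log axis, the authors' values, each list on its own scale). Hsp83 and Hsp27 stand at the right with pooled signals of 982.9 and 715.7, the 4 genes below the dashed line at 90.3 have no IDR peak in the window, and the replicate 1 point of Hsp22 at 122.1 is a summit that the pooled list places just outside the window.

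Hsp83, the only cytosolic Hsp90 gene of the fly and one that is transcribed strongly without stress and more so in heat, had the strongest peak of the 10. The gene lies on the plus strand of 3L from 3192969 to 3197059, with a TSS at 3192969 and a second at 3193216. Its peak, 3L 3192864 to 3193275, had a signal of 982.9 and ranked 48 in the pooled list, with 534.9 and rank 72 in replicate 1 and 445.7 and rank 31 in replicate 3. The summit lay in the annotated 5' UTR, 119 bp downstream of the outer TSS and 128 bp upstream of the inner one, and those of the replicates lay 122 and 123 bp downstream of the outer TSS. Both replicates thus put the same position among their strongest peaks. A heat shock element pair, meaning GAANNTTC or TTCNNGAA, was centred 64 bp from this summit and began 68 bases upstream of the inner TSS. The 25 bases around it, 3L 3193140 to 3193164 on the plus strand, are shown because they place the element between the summit and the inner TSS, with the element in capitals.
Hsp83: agcctctaGAAGTTTCtagagactt

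A second IDR peak of Hsp83 lay inside the gene. It spanned 3L 3194150 to 3194403 in an intron, with its summit 1061 bp downstream of the inner TSS and so outside the promoter window. Its signal was 351.8 with rank 515, against 213.7 and rank 504 in replicate 1 and 138.4 and rank 548 in replicate 3, so its place was close to the same in each list. The 200 bases around the summit, 3L 3194177 to 3194376, had a GC content of 30%, against 45.5% at the promoter summit and a median of 36.5% over all IDR summits (5th to 95th percentile 25% to 52%). They are printed to show this AT-rich stretch of the intron, which holds no heat shock element pair and no GAGAG, so nothing is in capitals.
Hsp83 intron: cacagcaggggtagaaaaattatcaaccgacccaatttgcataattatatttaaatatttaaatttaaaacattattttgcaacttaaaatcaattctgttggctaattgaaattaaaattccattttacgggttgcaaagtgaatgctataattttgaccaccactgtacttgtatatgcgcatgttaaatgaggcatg

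Within 10 kb of the Hsp83 TSSs, 3 further IDR peaks stood at other genes. Their signals were 269.5 at 20 bp from the TSS of gry, 155.9 at 190 bp from that of CG14957 and 93.4 at 19 bp from that of CG14966. Both Hsp83 peaks were stronger than each of these in the pooled list and in both replicates.

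Hsp27 encodes a small heat shock protein found largely in the nucleus. It occupies 3L 9384063 to 9385694 on the plus strand, at the end of the 67B cluster, and had the second strongest promoter peak of the 10 genes. The peak, 3L 9383706 to 9384094, had a signal of 715.7 and rank 120, with 418.1 and rank 124 in replicate 1 and 299.9 and rank 112 in replicate 3. Its summit lay in intergenic sequence 153 bp upstream of the TSS in the pooled list and in replicate 3, and 140 bp upstream in replicate 1. The ranks show that both replicates placed it near the top of 30000 entries. Hsp26, a cytosolic small heat shock protein gene on the minus strand of 3L at 9376418 to 9377427, had its summit at nearly the same distance, 138 bp upstream of its outer TSS, within a peak at 3L 9377343 to 9377786. That peak was weaker, with a signal of 199.9 and rank 1372, 122.3 and rank 1311 in replicate 1 and 79.2 and rank 1599 in replicate 3. The replicate summits of Hsp26 lay 137 and 183 bp upstream. The sequences of both summits are set side by side because the summits share a distance from the TSS but not their motifs, with heat shock element pairs in capitals, each read on the strand of its gene. Hsp27 is 3L 9383810 to 9384009 on the plus strand and Hsp26 is 3L 9377465 to 9377664 on the minus strand.
Hsp27: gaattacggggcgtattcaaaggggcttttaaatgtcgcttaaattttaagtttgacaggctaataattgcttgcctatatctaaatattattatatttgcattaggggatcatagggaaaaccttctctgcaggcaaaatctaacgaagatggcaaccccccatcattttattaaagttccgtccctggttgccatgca
Hsp26: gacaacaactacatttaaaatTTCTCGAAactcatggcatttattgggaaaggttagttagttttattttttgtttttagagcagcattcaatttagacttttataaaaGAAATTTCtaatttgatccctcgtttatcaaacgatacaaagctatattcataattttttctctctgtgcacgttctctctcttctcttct

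The 200 bases of Hsp26 held 2 heat shock element pairs, the nearer centred 13 bp from the summit, and 3 matches to GAGAG or its complement at 72 bp or more. Those of Hsp27 held neither motif, and no match to either stood in the promoter of Hsp27 from 250 bases before to 50 from the TSS on. GC content was 38.5% at Hsp27 and 29.5% at Hsp26.

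Hsp22 encodes a mitochondrial small heat shock protein, and its IDR peak fell just outside the window. The gene runs from 9372931 to 9374964 on the plus strand of 3L, with TSSs at 9372931 and 9373997, and overlaps CG4456 (Hsp67Bb), a gene of the cluster that does not encode a small heat shock protein. The peak, 3L 9373263 to 9373706, had a signal of 216.2 and rank 1204, with 122.1 and rank 1316 in replicate 1 and 92.0 and rank 1230 in replicate 3. Its summit at 9373485 lay 512 bp upstream of the inner TSS of Hsp22 and 988 bp from the TSS of Hsp67Bc. It was 554 bp from the outer TSS of Hsp22, where a TSS of CG4456 is also annotated. It stood in the 5' UTR of the longer Hsp22 transcript, which is also annotated as 3' UTR of CG4456. The summit of replicate 1 lay 459 bp from the inner TSS and so inside the window, while that of replicate 3 lay 513 bp away. Among the 10 genes the farthest IDR summit inside the window was one of stv at 441 bp, and this summit of Hsp22 at 512 bp was the nearest outside it. Inside the window Hsp22 had 3 pooled summits with signals of 43.2, 38.1 and 34.7, all below the lowest IDR signal. Upstream of the inner TSS, 2 heat shock element pairs began 188 and 87 bases away, while the 200 bases around the IDR summit held none.

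Hsp67Bc, a cytosolic small heat shock protein that acts with stv in the removal of misfolded proteins, lies on the minus strand at 3L 9371511 to 9372497. Its only pooled summit in the window, at 9372803 with a signal of 43.2 and rank 11811, lay 306 bp upstream and was shared. The same summit lay 81 bp from the outer TSS of CG4456 and 128 bp from the outer TSS of Hsp22. It was thus nearest CG4456 and cannot be assigned to 1 of the 3 genes. Replicate 3 listed this summit with a signal of 28.6, whereas replicate 1 listed another one 35 bp upstream of Hsp67Bc with 13.6, near the lowest signal of its list, 10.8.

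Hsp23, another cytosolic small heat shock protein gene, at 3L 9381882 to 9382765 on the plus strand, was the one without a summit in replicate 1, where the nearest lay 1027 bp away. The pooled list gave a signal of 40.7 at 140 bp downstream of the TSS, in the coding exon, and 21.7 at 341 bp. Replicate 3 gave 26.9 at 43 bp downstream, with rank 9035. The IDR summit nearest to the Hsp23 TSS was that of Hsp27, 2028 bp away. Its 200 bases upstream, 3L 9381682 to 9381881, are shown because they hold 2 heat shock element pairs (in capitals) and yet no IDR peak was listed there.
Hsp23: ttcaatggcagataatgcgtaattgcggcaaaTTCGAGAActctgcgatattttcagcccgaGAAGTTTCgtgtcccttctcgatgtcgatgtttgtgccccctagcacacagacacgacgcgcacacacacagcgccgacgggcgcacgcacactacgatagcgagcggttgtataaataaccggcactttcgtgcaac

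Across the 67B cluster, 3L 9371511 to 9385694 with 9 annotated genes, 3 IDR summits were listed, those at Hsp22, Hsp26 and Hsp27. The pooled list had 15 summits there, replicate 1 had 10 and replicate 3 had 15. Apart from those 3, every pooled summit in the cluster was below the lowest IDR signal. Hsp67Ba, a small heat shock protein gene of the cluster, had a pooled signal of 37.4 at 232 bp (23.2 in replicate 1 and 22.6 in replicate 3), and CG4461, another, had 20.1 at 188 bp with no summit in replicate 1 and 15.2 in replicate 3. A pooled summit of 30.4 at 355 bp upstream of Hsp26 lay 378 bp from the TSS of the antisense RNA gene asRNA:CR43481. The next IDR peak beyond Hsp27 stood in an intron of CG4080, 3L 9391663 to 9392106, with a signal of 120.2.

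**Figure D2:**
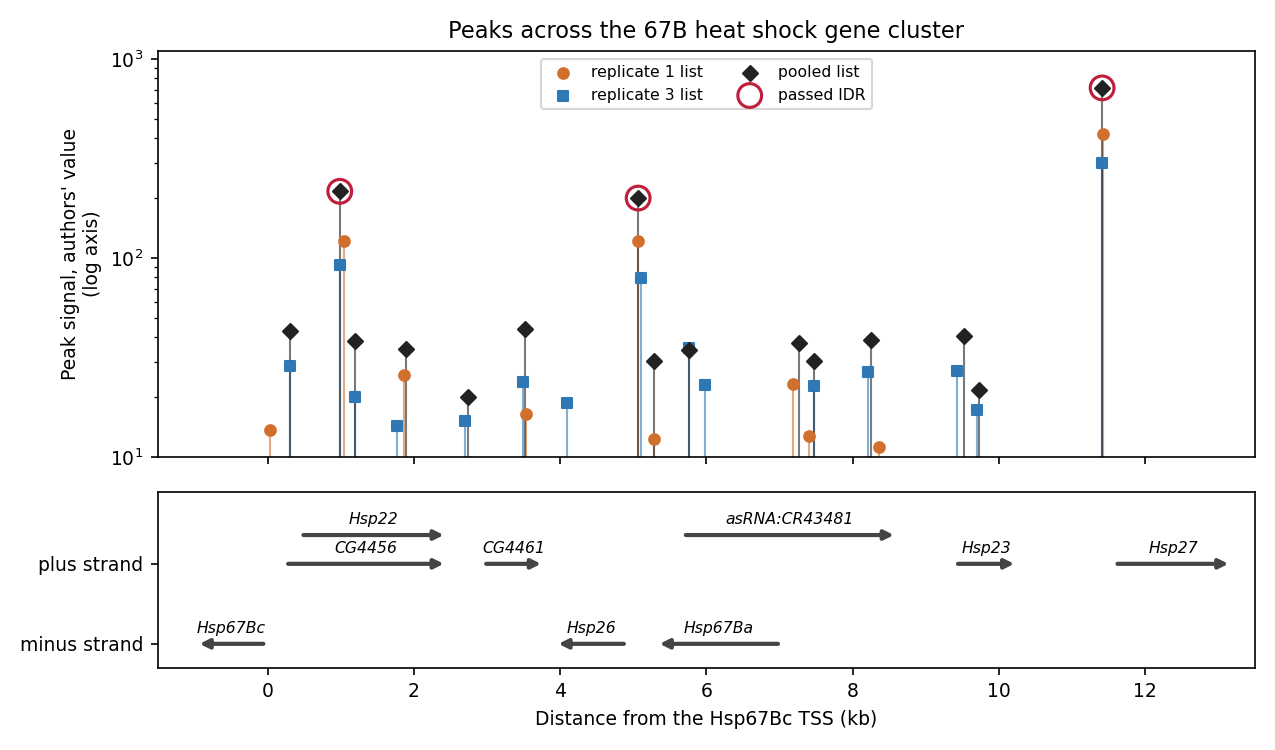
Peak summits across the 67B cluster by distance from the Hsp67Bc TSS (kb), with the authors' signal on a log axis above and the annotated genes on each strand below. Each stem is 1 summit of the pooled, replicate 1 or replicate 3 list, and the 3 ringed summits, with signals of 216.2, 199.9 and 715.7 from left to right, passed IDR.

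Hsp68 is a heat-inducible gene of the Hsp70 family, on the minus strand of 3R at 24055080 to 24057310. It had no IDR summit within 500 bp. The pooled list gave a signal of 47.2 with rank 10642 at 28 bp upstream, and replicate 1 gave 22.3 at 56 bp upstream. Replicate 3 gave 29.8 at 34 bp upstream and a stronger summit, 38.4, at 165 bp downstream. The nearest IDR summit lay 919 bp from Hsp68 but 58 bp from the TSS of SMC1, which encodes a cohesin subunit. That summit, nearer to the neighbour, had a signal of 122.6, against 62.7 in replicate 1 and 60.2 in replicate 3. Within 10 kb, 2 other IDR peaks stood at the TSSs of Rox8 (163.0 at 26 bp) and of Pisd and Atg6 (103.7 at 86 and 87 bp). For the latter, the overlapping peak with the nearest summit had 90.2 and rank 2118 in replicate 1 but 12.6 and rank 24925 in replicate 3. The 200 bases upstream of Hsp68, 3R 24057311 to 24057510 on the minus strand, are shown because its promoter held 6 heat shock element pairs, in capitals, some of them overlapping. This was the highest number at the outer TSS of any protein-coding gene.
Hsp68: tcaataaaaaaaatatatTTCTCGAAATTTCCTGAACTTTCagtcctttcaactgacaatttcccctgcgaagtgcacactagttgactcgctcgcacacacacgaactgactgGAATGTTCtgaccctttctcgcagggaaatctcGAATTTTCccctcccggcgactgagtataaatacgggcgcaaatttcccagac

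Hsc70-4, the constitutive Hsp70 that folds new proteins and strips clathrin from vesicles, differed from Hsp68 in having an IDR peak at its TSS. The gene lies on the plus strand of 3R at 15242687 to 15246614 and has 6 annotated TSSs. Its peak, 15242441 to 15242884, had a signal of 131.7 with rank 2680, 94.8 with rank 1965 in replicate 1 and 59.1 with rank 2674 in replicate 3. The pooled summit lay 24 bp upstream of the outer TSS, that of replicate 1 lay 141 bp upstream and that of replicate 3 lay 9 bp downstream, a wider spread than at Hsp83 or Hsp27. The same summit was 427 bp from the TSS of tefu, a DNA damage kinase gene. The 200 bases before the outer TSS, 3R 15242487 to 15242686, are given to set beside those of Hsp68, with the 1 heat shock element pair in capitals.
Hsc70-4: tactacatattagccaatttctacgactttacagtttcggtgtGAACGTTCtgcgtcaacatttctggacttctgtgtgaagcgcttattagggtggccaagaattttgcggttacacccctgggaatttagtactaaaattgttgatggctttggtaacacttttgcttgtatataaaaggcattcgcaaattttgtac

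Within 500 bp of its inner TSSs, Hsc70-4 had 2 weaker pooled summits, with signals of 57.3 and 29.3, and 2 more lay 517 and 908 bp from a TSS, with 27.1 and 33.9. Upstream of its TSS at 15243156 it had 4 further heat shock element pairs, and upstream of the outer TSS 1. A separate IDR peak 6488 bp from its nearest TSS, in an intron of CG42404, had a signal of 160.0.

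DnaJ-1 encodes the main stress-responsive Hsp40, a J-domain protein that delivers clients to Hsp70 and starts its ATP cycle. The gene, 3L 5750029 to 5752189 on the minus strand, had 2 overlapping IDR peaks, both with summits in its 5' UTR and downstream of its single TSS. The first, with its summit 329 bp downstream, had a signal of 118.2 (rank 3107), 55.3 in replicate 1 and 56.7 in replicate 3. The second, 87 bp downstream, had 111.7 (rank 3365), 61.3 in replicate 1 and 38.1 in replicate 3. Replicate 1 listed the second as the stronger and replicate 3 the first, so their order was not shared by the replicates. A heat shock element pair began 7 bases upstream of the TSS, and its centre was 91 bp from the second summit. A further IDR peak of 92.2 in an intron of the neighbour Usp47 lay 1642 bp from the DnaJ-1 TSS.

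The gene stv (starvin) encodes a BAG-domain protein that releases nucleotide from Hsp70 and works with small heat shock proteins in muscle. It lies on the plus strand of 3L at 13477541 to 13483515 with TSSs at 13477541, 13480444, 13480448 and 13480764, and it had 4 IDR summits at these, more than any other of the 10 genes. The interval 13476776 to 13477210 upstream of the outer TSS was listed with 2 summits. The one 577 bp upstream, outside the window, had the highest signal of the gene, 436.6 with rank 315, with 242.7 and rank 373 in replicate 1 and 191.6 and rank 275 in replicate 3. The one 370 bp upstream had 152.2 with rank 2134, with 48.2 and rank 5130 in replicate 1 and 92.4 and rank 1224 in replicate 3. The far summit was thus the stronger in both replicates, and the near one differed more in rank between them.

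The other 2 summits of stv lay in an intron, upstream of the TSS at 13480444. That at 441 bp, in a peak 119 bp long, had a signal of 232.2 with rank 1074, with 154.9 in replicate 1 and 74.5 in replicate 3. That at 241 bp, in a peak 137 bp long, had 161.0 with rank 1939, with 113.3 and rank 1478 in replicate 1 but 17.6 and rank 15993 in replicate 3. The value of 17.6 belongs to the replicate 3 summit nearest to this one and was below the median of its list. The stronger replicate 3 peak, 74.5 with rank 1787 and its summit 381 bp upstream, also spanned this interval. It lay between the 2 pooled summits, so replicate 3 did not separate them in the same way. The 200 bases around each of the upstream summits are shown because the sequences differ although the peaks share an interval. The far summit, 3L 13476864 to 13477063, had a GC content of 28% and 1 heat shock element pair 83 bp from the summit, in capitals. The near summit, 3L 13477071 to 13477270, had 45% and 7 matches to GAGAG or its complement, in capitals, the closest 31 bp away. They stood in separate groups, and those at the end of the stretch overlapped. Both are read on the plus strand.
stv far summit: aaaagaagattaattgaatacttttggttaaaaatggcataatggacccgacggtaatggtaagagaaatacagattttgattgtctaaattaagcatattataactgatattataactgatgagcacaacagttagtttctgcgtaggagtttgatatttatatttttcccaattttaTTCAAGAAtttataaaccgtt
stv near summit: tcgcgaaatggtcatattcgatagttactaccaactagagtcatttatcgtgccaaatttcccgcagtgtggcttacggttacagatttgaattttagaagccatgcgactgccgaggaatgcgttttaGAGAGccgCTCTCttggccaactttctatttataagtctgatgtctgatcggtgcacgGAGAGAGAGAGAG

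**Figure D3:**
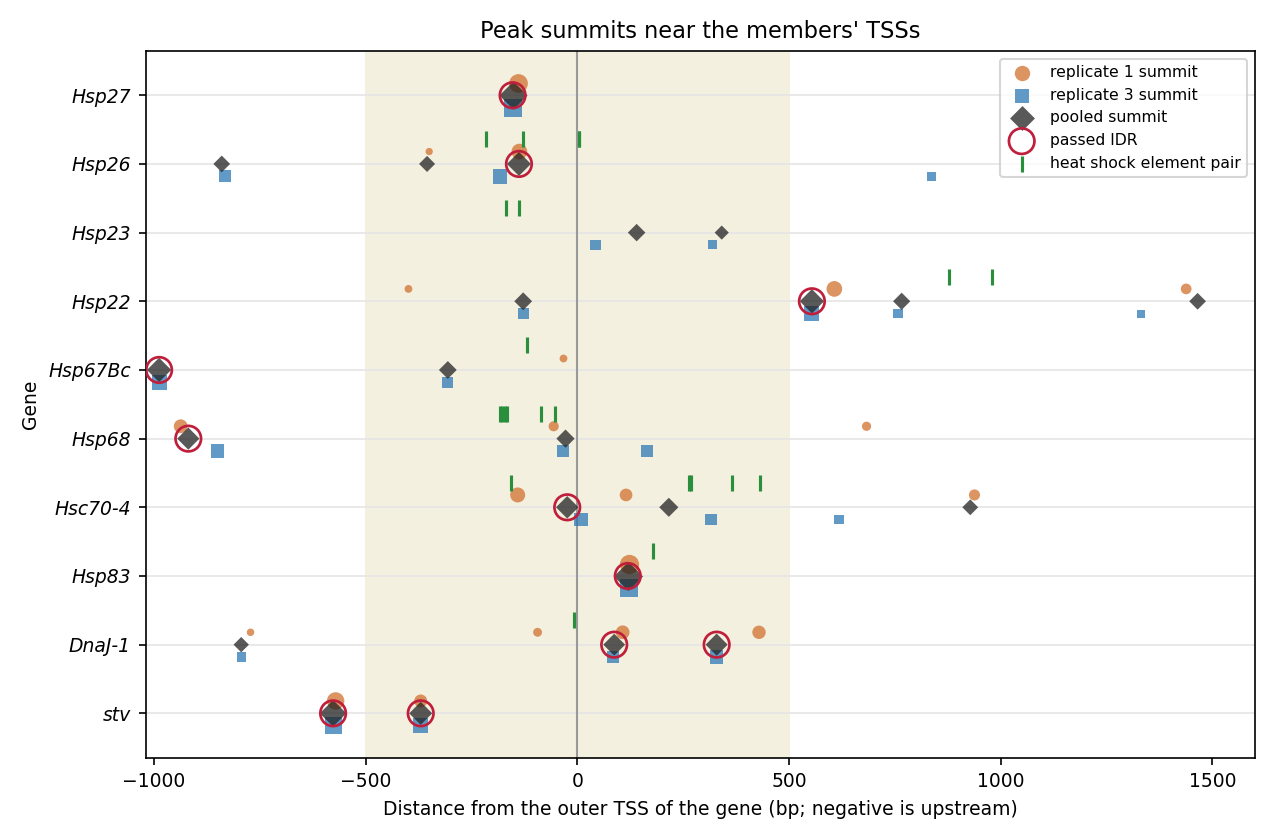
Position of each summit relative to the outer TSS of its gene (bp, negative upstream), one line per gene, with marker area rising with the logarithm of the signal and the 500 bp window shaded. Summits that passed IDR are ringed, and green ticks mark heat shock element pairs found from 250 bases before to 50 from any TSS. The intronic summits of stv and Hsp83, and the Hsc70-4 summits downstream of its TSS at 15244256, are not drawn. The ringed summits of Hsp27 and Hsp26 lie 153 and 138 bp upstream, those of Hsp83 and DnaJ-1 downstream.

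Heat shock element pairs were found at genes with and without an IDR peak. A heat shock element pair stood in the promoter (250 bases before the outer TSS to 50 from it on, both strands) of 6 of the 10 genes, against 15.92% of the promoters of all protein-coding genes. Of these 6, DnaJ-1, Hsc70-4 and Hsp26 had an IDR peak, and Hsp23, Hsp67Bc and Hsp68 did not. Over all IDR peaks, 9.38% held a pair within the 200 bases around the summit. GAGAG was found in the promoters of 4 genes, Hsp22, Hsp23, Hsp26 and stv, against 29.7% of all, and in 25.8% of the IDR windows. The TATA box letters TATAAA were found in 9 of the 10, stv being the exception, against 45.8% of all promoters and 34.0% of the IDR windows. These counts take a match anywhere in the promoter of the outer TSS. At an inner TSS, Hsp83, with an IDR peak in the window, had a heat shock element pair that began 68 bases upstream. Hsp22, without one, had pairs that began 188 and 87 bases upstream of its inner TSS. Hsc70-4 had GAGAG at inner TSSs. At its inner TSS at 13480764, stv had TATAAA matches that began 31 and 29 bases upstream. Promoter windows held 300 bases and summit windows 200, so the shares of promoters and of IDR windows cannot be compared with each other. A match is a description of the sequence and shows no binding of any factor.

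At the outer TSS, only 6 promoters of protein-coding genes held 4 or more heat shock element pairs, 0.043% of all. Inner TSSs were not searched over all genes. They were those of Hsp68, of the heat-inducible Hsp70 genes Hsp70Aa and Hsp70Ab with 5 pairs each, and of Idi, RanGAP and Send2 with 4 each. Of these 6, 2 had an IDR peak, against 21.4% of all protein-coding genes. They were Idi, an isoprenoid enzyme gene (113.0 at 12 bp), and RanGAP, which encodes a regulator of nuclear transport (372.7 at 147 bp). None of the 3 Hsp70 family genes in this set had an IDR peak in the window. Hsc70-4, an Hsp70 family gene with an IDR peak, was not in this set. Its inner TSSs at 15243156 and 15243198 stand close together, and the same 4 pairs fell in this span of both.

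The rest of the chaperone system was read from a list of 61 genes by role. An IDR peak in the window was found at 15 of them (14 of the 60 that are protein-coding, against 21.4% of all coding genes) and a pooled summit at 42 (41 of 60, against 55.8%). The counts by role below stand against the same 21.4% and 55.8%. With 1 to 14 genes per role, differences between roles were not tested. Of the 6 heat-inducible Hsp70 genes, none had an IDR peak and 1, Hsp70Aa, had a pooled summit, with a signal of 32.3 at 477 bp (15.9 in replicate 1 and 12.3 in replicate 3). The nearest IDR summits to the 6 genes lay 4490 to 57512 bp away. These genes are near-identical copies, and the labels do not say how reads shared between copies were mapped, so their values are uncertain. Of the 7 other small heat shock protein genes none had an IDR peak and 4 had a pooled summit, the highest at CG7409 with 71.2.

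Among the 5 other Hsp70 cognates and Hsp110, 1 had an IDR peak, against 21.4% of all protein-coding genes. It was the mitochondrial Hsp70 gene Hsc70-5. Its signal was 539.7 at 41 bp upstream (335.3 with rank 189 in replicate 1 and 209.3 with rank 221 in replicate 3), which put it between Hsp27 and stv. The endoplasmic reticulum Hsp70 gene Hsc70-3 had a pooled signal of 79.7 and Hsp110 had 78.1, both below the lowest IDR signal. Of 11 Hsp90 relatives and co-chaperones, all had a pooled summit, against 55.8% of all protein-coding genes, and 3 an IDR peak, against 21.4%. The 3 were unc-45, a myosin chaperone gene (148.1 at 81 bp), nudC (146.2 at 175 bp) and Gp93, the Hsp90 gene of the endoplasmic reticulum (133.3 at 34 bp). Each was far weaker than Hsp83.

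Of the 14 J-domain genes, the longest of the role lists, 7 had an IDR peak, against 21.4% of all protein-coding genes, and 3 of these summits lay nearer to the TSS of a neighbour. CG7130 had a signal of 427.6 at 303 bp, but the same summit lay 33 bp from RpLP0, a ribosomal protein gene. DnaJ-H had 248.1 at 303 bp with Sirt1 at 243 bp, and Droj2 had 140.3 at 226 bp with mRpS21 at 71 bp. CG5001 (126.9 at 10 bp) and Csp, the cysteine string protein gene of synaptic vesicles (123.2 at 56 bp), had summits nearest to their own TSSs, with signals close to those of DnaJ-1. Of the 4 genes of other Hsp70 nucleotide exchange and interacting factors, HIP, HIP-R, CG10973 and Roe1, none had a pooled summit. Replicate 1 alone listed one at CG10973 (32.7 with rank 8522, 245 bp upstream) and one at Roe1 (14.4 at 40 bp upstream).

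Mitochondrial chaperonin genes had 1 IDR peak among 5, against 21.4% of all protein-coding genes. It stood at CG11267, the gene of the Hsp10 co-chaperonin (325.2 at 144 bp), while Hsp60A had a pooled signal of 79.3. Of 6 prefoldin genes, 2 had an IDR peak, against the same 21.4%. They were mgr (414.7 at 83 bp) and Pfdn6 (252.3 at 246 bp, with Su(z)12 nearer at 37 bp). The heat shock factor gene Hsf had none and a pooled signal of 74.2 at 398 bp. The heat-induced noncoding RNA gene lncRNA:Hsromega had a signal of 373.2 at 216 bp downstream of a TSS. This was above that of the window peaks of all 10 genes except Hsp83 and Hsp27. Replicate 1 gave 222.5 at 179 bp downstream and replicate 3 gave 183.5 at 227 bp upstream, each from the nearest TSS.

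**Figure D4:**
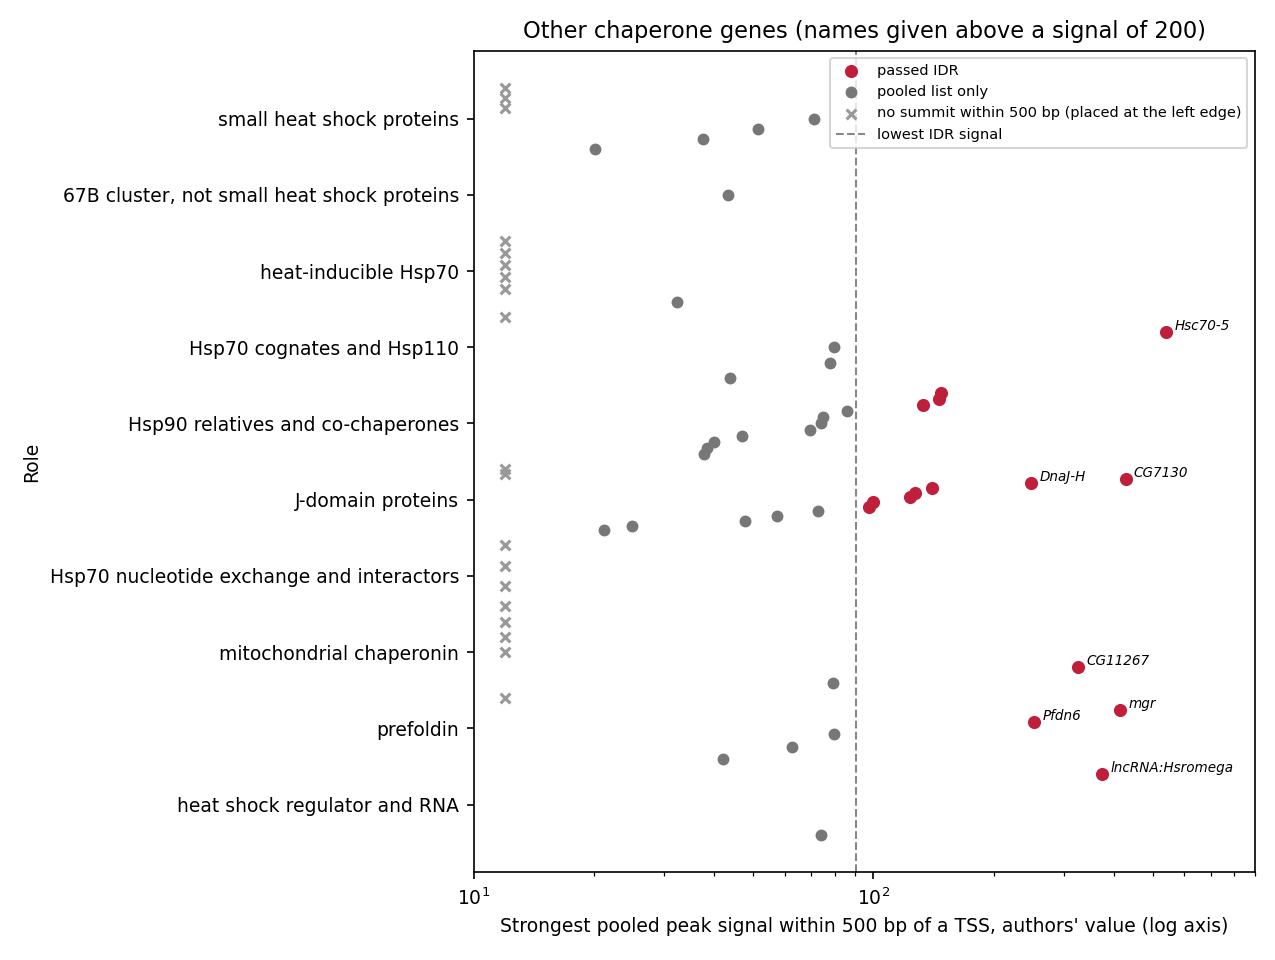
Strongest pooled signal within 500 bp of a TSS (log axis, the authors' values) for the 61 other chaperone genes, in rows by role, with genes without a pooled summit placed as crosses at the left edge. Red points passed IDR, grey points did not, and the dashed line marks the lowest IDR signal, 90.3. The rows of the heat-inducible Hsp70 and the other small heat shock protein genes hold no red point, and the J-domain row holds 7.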

How the data were processed

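ChIP-seq peak lists for 2 biological replicates (numbers 1 and 3 in the labels) were used in build dm6. Per the accompanying text file, the lists of each replicate and of both pooled derive from the alignments and a control alignment, and a further list holds the peaks that passed an IDR procedure. For aligner, peak caller, read filters and the threshold of the IDR procedure, names and versions were not given in the sources used here. The signal and the −log10 q value of each peak are as the authors deposited them. Neither was scaled between lists, and the −log10 q value is the same, 4.08, for all IDR peaks, so it was not used to rank. The deposited summit offset was added to the peak start. Depth is unknown. The replicates are separate biological samples per the labels, and their spread is given as both values, with no test, since there is 1 group.

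Summits were set against the TSSs of Ensembl release 115, on the arms. All 61 chaperone symbols were found, some of them by RefSeq synonyms or by a hand-written table of aliases. Sequence and motifs, searched on both strands, came from the RefSeq genome of the Release 6 assembly, whose coordinates are those of dm6. Python 3.11.15, numpy 2.4.6, pandas 2.3.3 and matplotlib 3.10.9 were used. The summit and motif searches were tested on simulated data. The genes, the chaperone list and the motifs were chosen with earlier results of these data known. Named are the 10 genes, genes whose TSS is nearer a summit of theirs, genes at other IDR peaks within 10 kb, the cluster and heat-inducible Hsp70 genes, Hsf, lncRNA:Hsromega, and up to 5 genes with an IDR peak per role. Genes with many heat shock element pairs, and genes named for a pooled signal only, such as Hsc70-3, Hsp110, CG7409 and Hsp60A, were chosen after their values were seen. Alternatives were windows of 250 and 1000 bp, the outer TSS only, the stronger 50% of the IDR peaks, overlap of at least 1 bp with the TSS, and each replicate alone. Lists in dm3 were not used here.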

Additional observations from a re-analysis of the deposited data

How the results depend on the processing

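Shares in brackets are of all protein-coding genes under the same setting. Of the 10 genes, 6 had an IDR peak at 250 bp (17.4%), 9 at 1000 bp (24.6%, adding Hsp22, Hsp67Bc and Hsp68), 6 at the outer TSS alone (19%), 5 by overlap of the peak with a TSS (14.4%, losing stv) and 4 among the stronger 50% of the IDR peaks (12.8%, losing DnaJ-1 and Hsc70-4). The strongest peaks of 1 replicate in place of the IDR list gave 6 without replicate 1 (20.8%) and 7 without replicate 3 (21.7%, adding Hsp22). In the pooled list the count was 9 at 250 bp (47.8%, losing Hsp67Bc), 10 at 1000 bp (61.9%), 10 at the outer TSS (53.4%), 8 by overlap (44.3%, losing Hsp67Bc and stv), 9 without replicate 3 (55.3%, losing Hsp23) and 10 without replicate 1 (54%). In both replicate lists it was 6 at 250 bp (37.1%, losing Hsp22, Hsp67Bc and stv) and 9 at 1000 bp (54%). Of the 61 other chaperone genes, the stronger 50% of the IDR peaks kept 9 of 15 (12.8%), because fewer peaks enter. Leaving out replicate 3 gave 19 (21.7%) and leaving out replicate 1 gave 17 (20.8%). Their count was 12 at 250 bp (17.4%, losing CG7130, DnaJ-H and mrj), 17 at 1000 bp (24.6%) and 13 at the outer TSS (19%, losing DnaJ-H and mrj). The strongest signal of stv in the window was 161.0 at 250 bp, 436.6 at 1000 bp and 152.2 at the outer TSS, and that of DnaJ-1 was 111.7 at 250 bp. No paired analysis was possible because there is 1 group. The lists give no read counts, so weak summits near the bottom of a list cannot be told from background, and the control experiment was not used here.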
